A study of Mus musculus with 8 samples.

Results

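The genes of the Mediator kinase module were taken from the deposited table by symbol: Cdk8, Cdk19, Ccnc, Med12, Med12l, Med13 and Med13l, 7 of 54532 genes. Each symbol matched 1 gene, and all 7 passed the filter on low counts that left 15470 genes for testing. The RNA was that of embryonic fibroblasts of wild-type mice, collected on day 4 of culture in 4 media, each represented by 2 libraries. All 3 cocktails shared a base written CFAE: the GSK-3 inhibitor CHIR99021, the adenylyl cyclase activator Forskolin, the retinoic acid receptor agonist AM580, and EPZ04777, a compound that blocks the histone methyltransferase DOT1L. CFAE+8+MSC contained this base with A-83-01, which blocks the TGF-beta type I receptor, and with MSC2530818, an inhibitor of the kinases CDK8 and CDK19. CFAE+6 contained the base with E-616452, another blocker of that receptor. CFAE+8 contained the base with A-83-01. Cells labelled MEF were held in fibroblast medium, for which the labels name none of these compounds. The labels give no doses and do not say if replicates were separate cultures, so each p-value reflects the spread among these 8 libraries alone, which can be technical.

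Mediator is a large complex that passes signals from DNA-bound transcription factors to RNA polymerase II. A separable module of 4 subunits binds to it reversibly: a cyclin-dependent kinase (CDK8 or its paralogue CDK19), cyclin C, MED12 or MED12L, and MED13 or MED13L. MED12 activates the kinase bound to cyclin C, and MED13 tethers the module to the rest of Mediator. The module can block the contact between Mediator and the polymerase, and its kinase phosphorylates transcription factors such as SMAD proteins and the Notch intracellular domain. The series title names CDK8 as a barrier to reprogramming. MSC2530818 acts on kinase activity, which RNA levels do not measure. The question here was whether the transcripts of the inhibited kinases and of their partners differed between the media.

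Totals ran from 10958430 to 11913143 counts per library. Levels are given in CPM, read counts scaled to a common library size with TMM factors (which are robust to a few abundant genes). The 9 fibroblast markers examined were detected in every group, with a summed level of 12805 to 13210 CPM in CFAE+8+MSC, 11864 to 12329 CPM in CFAE+6, 12806 to 12882 CPM in CFAE+8 and 30396 to 31155 CPM in MEF. Collagen genes carry most of that sum, and against MEF 6 of the 9 fell and 3 rose in each cocktail (edgeR, adjusted p of 0.05 or less). Col1a1 averaged 4324 CPM in CFAE+8+MSC and 14726 CPM in MEF, whereas Thy1 averaged 1506 CPM in CFAE+8+MSC and 681 CPM in MEF, and Pdgfra and Lum also rose. The 5 macrophage markers summed to 17.1 to 18.1 CPM in CFAE+8+MSC, 14.5 to 17.5 CPM in CFAE+6, 31.0 to 31.7 CPM in CFAE+8 and 156 to 157 CPM in MEF. The 4 endothelial markers summed to 52.1 to 54.3, 55.0 to 60.8, 24.9 to 27.1 and 16.3 to 17.2 CPM in the groups in the same order, the 5 epithelial markers to 40.7 to 44.3, 36.3 to 36.7, 10.8 to 10.8 and 18.2 to 21.2 CPM, and the 4 neuronal markers to 60.1 to 68.1, 57.6 to 59.8, 68.7 to 74.3 and 37.7 to 38 CPM. Most of the macrophage sum in MEF was Lyz2, at 124 CPM. Lyz2 averaged 3.61 CPM in CFAE+8+MSC, 6.91 CPM in CFAE+6 and 14.8 CPM in CFAE+8. Cd68, another macrophage marker, averaged 10.9 CPM in CFAE+8+MSC, 5.66 CPM in CFAE+6 and 13.2 CPM in MEF. In CFAE+8 the log2 fold change of Cd68 against MEF was -0.14 (edgeR, adjusted p = 0.461). Against MEF, 4 macrophage markers fell and 1 did not pass in CFAE+8+MSC and in CFAE+8, and all 5 fell in CFAE+6. Most of the endothelial sum was Kdr. Tek, another endothelial marker, averaged 1.06 CPM in CFAE+8+MSC, 0.740 CPM in CFAE+6, 0.978 CPM in CFAE+8 and 1.91 CPM in MEF, where it was highest. Of the epithelial markers, Krt19 averaged 10.4 CPM in CFAE+8+MSC, 10.7 CPM in CFAE+6, 1.57 CPM in CFAE+8 and 11.5 CPM in MEF. In the same order Krt8 averaged 10.7, 8.47, 2.47 and 1.86 CPM, and Krt18 19.8, 14.3, 5.79 and 5.87 CPM. In CFAE+8 against MEF, 1 of the 5 rose, 1 fell and 3 did not pass (edgeR, adjusted p of 0.05 or less). Most of the neuronal sum was Tubb3. Rbfox3 had no counts in CFAE+8+MSC, CFAE+8 or MEF. Snap25 averaged 2.68 CPM in CFAE+8+MSC, 3.17 CPM in CFAE+6 and 1.96 CPM in CFAE+8 and had no counts in MEF. Syt1 averaged 2.33 CPM in CFAE+8+MSC, 1.74 CPM in CFAE+6, 0.553 CPM in CFAE+8 and 1.49 CPM in MEF, so in CFAE+8 it was below MEF. Mitochondrial genes took 1.96% to 2.21% of the counts in the cocktails and 1.21% to 1.24% in MEF. The 4 markers of pluripotent cells summed to at most 1.01 CPM, and of them Pou5f1 and Zfp42 had no counts in any group. The marker levels and the mitochondrial share move with several of the differences below, and their part in them was not tested. In such bulk samples, fewer cells of a type and less RNA per cell cannot be told apart.

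Across the 4 media, Cdk8 and Med13 stayed within a narrow range, while Med13l, Cdk19 and Med12l varied. The highest group mean was 1.14 times the lowest for Cdk8, 1.10 times for Med13, 1.15 times for Med12 and 1.26 times for Ccnc. The same figure was 1.48 for Cdk19, 2.07 for Med13l and 2.33 for Med12l, against a median of 1.63 over the 15281 tested genes with counts in each group. In a test for any difference among the media (edgeR quasi-likelihood F test, Benjamini-Hochberg adjusted p of 0.05 or less over all genes tested), 4 of the 7 genes passed: Med13l (adjusted p = 7.37e-15), Med12l (adjusted p = 0.000192), Cdk19 (adjusted p = 0.000204) and Med12 (adjusted p = 0.0404). Of all tested genes 71.8% passed, so 4 of 7 is no larger a share than in the table as a whole. The test did not pass for Ccnc (adjusted p = 0.0685, but 0.0303 without CFAE+6 replicate 1 and 0.0461 without CFAE+8 replicate 1), Cdk8 (adjusted p = 0.155) or Med13 (adjusted p = 0.34). Med12 did not pass in DESeq2 (adjusted p = 0.223) or without any of 5 libraries, the highest adjusted p being 0.38 without CFAE+8 replicate 2.

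**Figure D1:**
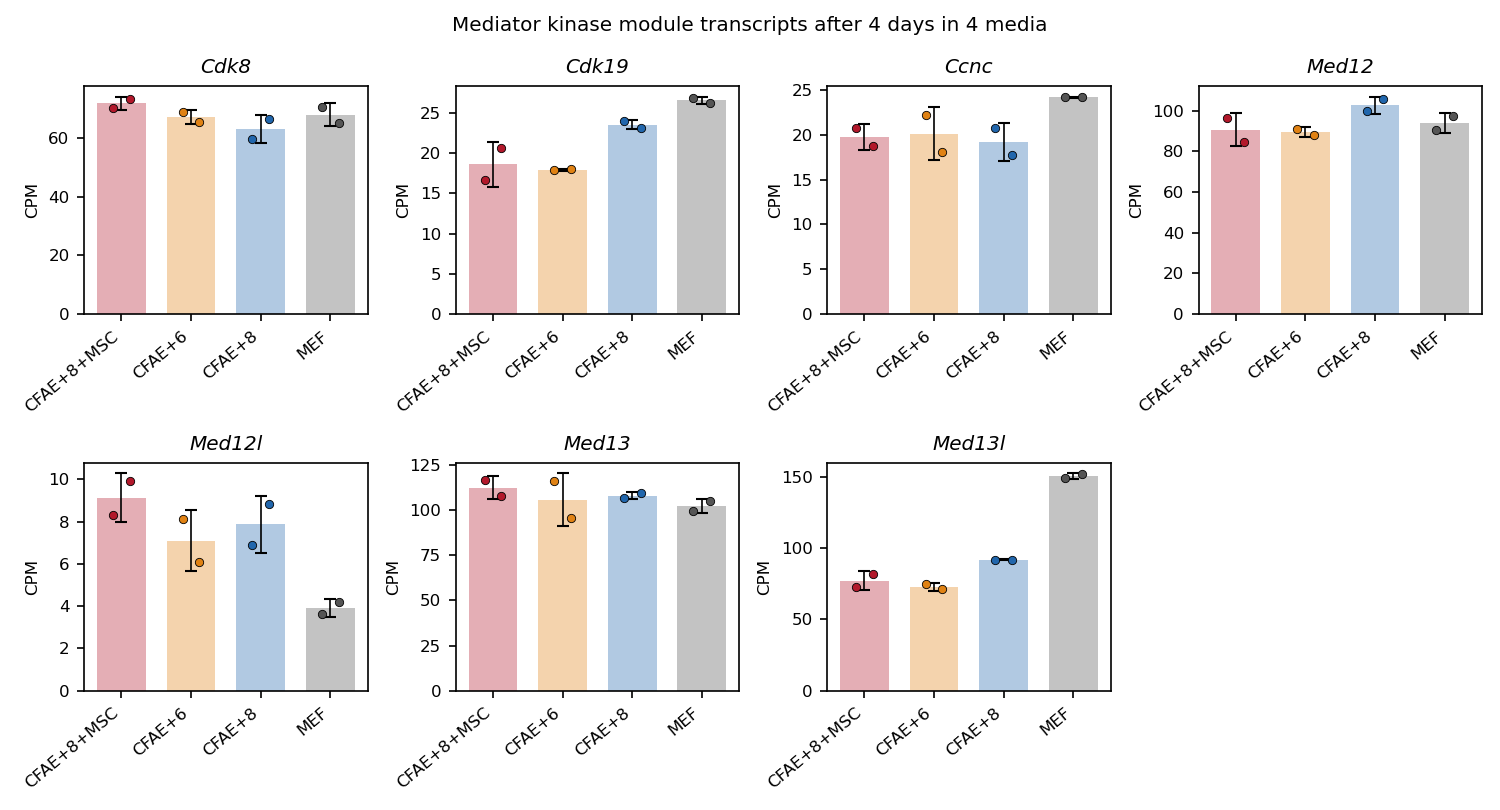
Level in CPM (y axis, from 0) of each kinase module gene in the 8 libraries. Points are libraries, bars are group means and whiskers are SD (n = 2). Med13l stands at 149 and 152 CPM in MEF and at or below 92.0 CPM in each cocktail library, whereas the Cdk8 bars lie close together.

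Cdk8 encodes the founding kinase of the module (ENSMUSG00000029635, mm10 chromosome 5, 146231230 to 146302874, plus strand). Its level was 70.2 and 73.3 CPM in CFAE+8+MSC, 68.9 and 65.4 CPM in CFAE+6, 59.8 and 66.5 CPM in CFAE+8, and 70.7 and 65.2 CPM in MEF. The CFAE+8+MSC libraries lay above every library of CFAE+8 and CFAE+6 and overlapped MEF, and the other groups overlapped one another. With the kinase inhibitor present the log2 fold change of Cdk8 against CFAE+8 was 0.18 ± 0.07 (SE; 95% interval 0.03 to 0.34, adjusted p = 0.0613 in edgeR), which did not pass the threshold. It passed when the fit held only these groups (adjusted p = 0.0433) and without CFAE+8 replicate 2 (adjusted p = 0.0417). In none of the 6 comparisons between media did Cdk8 pass, and the widest limits of its 95% intervals were a 0.835-fold and a 1.26-fold level. In edgeR 1 of the 6 unadjusted values lay under 0.05, that of CFAE+8+MSC against CFAE+8, and DESeq2 called 0.

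Cdk19 encodes the paralogue that can take the place of CDK8 (ENSMUSG00000038481, chromosome 10, 40339564 to 40483818, plus strand). It was measured at 16.6 and 20.6 CPM in CFAE+8+MSC, 17.9 and 18.1 CPM in CFAE+6, 24.0 and 23.2 CPM in CFAE+8, and 26.9 and 26.3 CPM in MEF. Every library of CFAE+8+MSC and CFAE+6 lay below every library of CFAE+8 and MEF. Against MEF, Cdk19 fell by 0.52 ± 0.12 on the log2 scale in CFAE+8+MSC (adjusted p = 0.000434) and by 0.56 ± 0.12 in CFAE+6 (adjusted p = 0.000159). Both calls held in each of the 11 alternative settings run for them. In CFAE+8 the log2 fold change against MEF was -0.17 ± 0.12 (95% interval -0.41 to 0.06, adjusted p = 0.194). Against CFAE+8, Cdk19 fell by 0.34 ± 0.12 in CFAE+8+MSC (adjusted p = 0.0316) and by 0.39 ± 0.12 in CFAE+6 (adjusted p = 0.0155). These last calls were less firm: they were lost in DESeq2 (adjusted p = 0.182 and 0.122), and without CFAE+8+MSC replicate 1 the first change was -0.19 (adjusted p = 0.385). Each omission of a library ended the CFAE+6 call against CFAE+8, with adjusted p between 0.0537 and 0.0959, as did leaving out either CFAE+8 library for the CFAE+8+MSC call (adjusted p = 0.153 and 0.0877). Cdk19os, an antisense gene over 4.58% of the exon length of Cdk19, had 0 or 1 counts in each library.

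Ccnc encodes cyclin C, the partner without which neither kinase is active (ENSMUSG00000028252, chromosome 4, 21727701 to 21759922, plus strand). Its level was 20.8 and 18.7 CPM in CFAE+8+MSC, 22.2 and 18.1 CPM in CFAE+6, 20.7 and 17.7 CPM in CFAE+8, and 24.2 and 24.2 CPM in MEF. All 6 cocktail libraries lay below both MEF libraries, and the cocktails overlapped one another. Against MEF, Ccnc fell by 0.33 ± 0.13 on the log2 scale in CFAE+8 (adjusted p = 0.0232) and by 0.29 ± 0.13 in CFAE+8+MSC (adjusted p = 0.0434). In CFAE+6 its log2 fold change against MEF was -0.27 ± 0.13 (adjusted p = 0.0647). The Ccnc calls were weak: DESeq2 gave adjusted p = 0.131 for CFAE+8 and 0.19 for CFAE+8+MSC, and the CFAE+8+MSC call was lost with upper-quartile scaling (adjusted p = 0.0686) and without the filter (adjusted p = 0.0629). Each was also lost in 3 of 4 fits that left out 1 library, namely either MEF library (adjusted p = 0.0826 and 0.0728 for CFAE+8, 0.129 and 0.114 for CFAE+8+MSC), CFAE+8 replicate 2 (adjusted p = 0.232) and CFAE+8+MSC replicate 2 (adjusted p = 0.246). Without CFAE+6 replicate 1 the CFAE+6 value passed (adjusted p = 0.0192). Tstd3, which lies on the other strand over 5.4% of the exon length of Ccnc, had 75 and 72 counts in CFAE+8+MSC, 75 and 78 in CFAE+6, 97 and 91 in CFAE+8 and 118 and 123 in MEF. Strand is not marked by the library kit, and reads in that overlap cannot be assigned to either gene.

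Med12 encodes the subunit that activates the kinase (ENSMUSG00000079487, chromosome X, 101274030 to 101297465, plus strand). It was at 96.3 and 84.7 CPM in CFAE+8+MSC, 91.1 and 87.8 CPM in CFAE+6, 99.6 and 106 CPM in CFAE+8, and 90.4 and 97.3 CPM in MEF. The highest values were those of CFAE+8. Against CFAE+8, Med12 fell by 0.18 ± 0.07 on the log2 scale in CFAE+8+MSC (adjusted p = 0.0462) and by 0.20 ± 0.07 in CFAE+6 (adjusted p = 0.0306). DESeq2 did not call either difference (adjusted p = 0.183 and 0.147). The first was also lost with size factors of the DESeq2 type (adjusted p = 0.0554), in a fit of the 2 groups alone (adjusted p = 0.0509), and without CFAE+8+MSC replicate 2 (-0.09, adjusted p = 0.495), CFAE+8 replicate 1 (adjusted p = 0.0721) or CFAE+8 replicate 2 (adjusted p = 0.311). The second was lost without CFAE+6 replicate 2 (adjusted p = 0.141), CFAE+8 replicate 1 (adjusted p = 0.0512) or CFAE+8 replicate 2 (adjusted p = 0.248). Against MEF no cocktail passed for Med12, the smallest adjusted p being 0.103 in CFAE+8, where it passed with upper-quartile scaling (adjusted p = 0.0326) and in a fit of the 2 groups alone (adjusted p = 0.0444). Gm21986 on the same strand covers 9.72% of the exon length of Med12 and had 1 to 12 counts per library.

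Med12l encodes the paralogue of MED12 (ENSMUSG00000056476, chromosome 3, 59005825 to 59318682, plus strand) and was the least abundant gene of the module. It had 96 and 110 counts in CFAE+8+MSC, 92 and 71 in CFAE+6, 81 and 104 in CFAE+8, and 38 and 46 in MEF. On the CPM scale these were 8.31 and 9.95 in CFAE+8+MSC, 8.11 and 6.08 in CFAE+6, 6.91 and 8.82 in CFAE+8, and 3.61 and 4.21 in MEF. All cocktail libraries lay above both MEF libraries, and the cocktails overlapped one another. Against MEF, Med12l rose 2.33-fold in CFAE+8+MSC (log2 fold change 1.22 ± 0.23, adjusted p = 2.77e-05), 1.81-fold in CFAE+6 (0.86 ± 0.23, adjusted p = 0.00217) and 2.01-fold in CFAE+8 (1.01 ± 0.23, adjusted p = 0.00037). These calls held in each of the 11 alternative settings, with adjusted p up to 0.0497 for CFAE+6. The value is uncertain because 17.3% of the exon length of Med12l overlaps exons of other genes, among them Igsf10 on the opposite strand. Igsf10 had 2246 and 2040 counts in CFAE+8+MSC, 2763 and 2470 in CFAE+6, 2806 and 2871 in CFAE+8, and 2129 and 2324 in MEF. On the CPM scale Igsf10 was at 195 and 184 in CFAE+8+MSC, 244 and 211 in CFAE+6, 239.5 and 243 in CFAE+8 and 202 and 213 in MEF, so both CFAE+8 libraries lay above MEF, both CFAE+8+MSC libraries lay below MEF, and CFAE+6 overlapped MEF. Its part in the Med12l values was not tested. P2ry12 and Gm43570, the other overlapping genes, had at most 5 and 4 counts in a library.

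Med13 encodes the subunit that tethers the module (ENSMUSG00000034297, chromosome 11, 86267033 to 86357602, minus strand). Its level was 117 and 108 CPM in CFAE+8+MSC, 116 and 95.7 CPM in CFAE+6, 107 and 109.7 CPM in CFAE+8, and 99.6 and 105 CPM in MEF. Replicates of CFAE+6 spanned most of the range over all 8 libraries. No comparison passed, and the 95% intervals of the 6 fold changes ran from a 0.884-fold to a 1.22-fold level. The largest was 0.14 ± 0.07 on the log2 scale in CFAE+8+MSC against MEF (adjusted p = 0.0966). That difference passed with upper-quartile scaling (adjusted p = 0.0424), in a fit of the 2 groups alone (adjusted p = 0.0267) and without CFAE+8+MSC replicate 2 (adjusted p = 0.0402). In edgeR 0 of the 6 unadjusted values lay under 0.05, and DESeq2 called 0. Med13 also passed without CFAE+6 replicate 2 in CFAE+6 against MEF (adjusted p = 0.0306), and without CFAE+6 replicate 1 among all media (adjusted p = 0.0214). Brip1os lies on the opposite strand over 7.38% of the exon length of Med13 and had 667 to 848 counts per library. On the CPM scale Brip1os was at 57.8 and 62.7 in CFAE+8+MSC and 62.9 and 63.2 in CFAE+6. It was at 70.1 and 71.9 CPM in CFAE+8 and 70.2 and 76.6 CPM in MEF. The part of Brip1os in the Med13 values was not tested.

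Med13l encodes the paralogue of MED13 (ENSMUSG00000018076, chromosome 5, 118560679 to 118765438, plus strand) and showed the clearest differences in the module. It was at 72.6 and 81.8 CPM in CFAE+8+MSC, 74.8 and 71.0 CPM in CFAE+6, 92.0 and 91.6 CPM in CFAE+8, and 149 and 152 CPM in MEF. MEF stood above all cocktails, and CFAE+8 stood above the other cocktails, which overlapped. Against MEF, Med13l fell to 0.512-fold in CFAE+8+MSC (log2 fold change -0.96 ± 0.06, adjusted p = 8.42e-14), to 0.484-fold in CFAE+6 (-1.05 ± 0.06, adjusted p = 1.4e-14) and to 0.609-fold in CFAE+8 (-0.71 ± 0.06, adjusted p = 4.62e-11). All 3 calls held in every one of the 11 alternative settings, including a test against a 1.2-fold change. Against CFAE+8 it fell by 0.25 ± 0.07 on the log2 scale in CFAE+8+MSC (adjusted p = 0.00463) and by 0.33 ± 0.07 in CFAE+6 (adjusted p = 0.000331). Those smaller changes did not exceed 1.2-fold by test (adjusted p = 0.789 and 0.288). Without CFAE+8+MSC replicate 1 the change in CFAE+8+MSC was -0.16 (adjusted p = 0.149). Exons of other genes cover 0.357% of its exon length, from Gm43785, which had no counts.

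Because Med12l and Med13l, paralogues of 2 partner subunits, moved in opposite directions against MEF, their RefSeq promoters are shown (GRCm38.p6, 250 bases before to 50 after the start site, 5′ to 3′ on the strand of the gene). Capitals mark GC boxes, the letters GGGCGG or their complement CCGCCC, the site known for binding Sp1. The promoter of Med12l lies at chr3:59006728-59007027 (plus strand) and that of Med13l at chr5:118560469-118560768 (plus strand). The Med12l stretch lies wholly inside the gene as counted, which starts at 59005825, so it belongs to a later start site.
Med12l: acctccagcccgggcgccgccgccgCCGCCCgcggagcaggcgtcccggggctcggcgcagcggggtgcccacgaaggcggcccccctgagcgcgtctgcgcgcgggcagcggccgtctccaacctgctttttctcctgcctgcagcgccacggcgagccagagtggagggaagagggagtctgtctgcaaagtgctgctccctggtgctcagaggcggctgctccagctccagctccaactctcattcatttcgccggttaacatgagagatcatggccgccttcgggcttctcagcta
Med13l: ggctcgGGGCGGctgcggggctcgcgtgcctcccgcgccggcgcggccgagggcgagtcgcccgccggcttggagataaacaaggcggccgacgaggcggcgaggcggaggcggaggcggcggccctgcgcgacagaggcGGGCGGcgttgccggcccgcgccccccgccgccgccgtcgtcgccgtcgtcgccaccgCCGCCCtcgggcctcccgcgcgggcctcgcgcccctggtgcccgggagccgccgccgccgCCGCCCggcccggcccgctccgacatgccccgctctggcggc
The Med13l promoter had 61 CpG dinucleotides and a GC content of 84.7%, and that of Med12l had 30 CpG and 69.0%. Promoters of the other members with an entry had 31 CpG and 66.7% (Cdk8), 24 and 60.0% (Ccnc), 27 and 66.3% (Med12) and 43 and 78.3% (Med13). The medians over 32851 promoters of the same length were 7 CpG and 52.7%. Med13l held 4 GC boxes and Med12l 1, and the other members with an entry held 2 (Cdk8), 3 (Ccnc), 1 (Med12) and 7 (Med13). Of all promoters 35.7% held at least 1 on either strand. The full cAMP response element TGACGTCA was in none of the 6 member promoters found (1.79% of all promoters), and neither were the TATA box letters TATAAA (13.6%) or ATCAAAG, a TCF site (3.73%). TGACG, the first letters of the cAMP response element, was found in Cdk8 and Ccnc (20.8% of all), and CAGACA, which holds the SMAD box, was found in Ccnc, Med12l and Med13 (21% of all). Each motif was searched on both strands, and a match describes these letters only.

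Adding the inhibitor of CDK8 and CDK19 was examined by comparing CFAE+8+MSC with CFAE+8. Of the 7 genes, Cdk19, Med12 and Med13l fell, none rose, and 4 did not pass. Of all tested genes 13.8% fell and 15.6% rose, 29.3% in either direction. The members' log2 fold changes had a median of 0.04 and ranged from -0.34 to 0.21. Their median absolute change was 0.18, against 0.22 over all tested genes. The 95% interval of Ccnc was -0.22 to 0.30, that of Med12l -0.19 to 0.62 and that of Med13 -0.09 to 0.20. DESeq2 called 1 of the 7 (Med13l) and a test against a 1.2-fold change called 0. When any library of these groups was left out, fewer of Cdk19, Med12 and Med13l passed. Without CFAE+8 replicate 2 the log2 fold change of Cdk8 was 0.27, a rise.

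Replacing A-83-01 by E-616452 was examined by comparing CFAE+6 with CFAE+8. Cdk19, Med12 and Med13l fell, none rose, and the other 4 did not pass, against 12.3% of all genes lower and 14.3% higher (26.6% in either direction). The median log2 fold change of the members was -0.15, with a range from -0.39 to 0.09. Their median absolute change was 0.15, and that of all tested genes was 0.20. DESeq2 called 1 (Med13l), the test against 1.2-fold called 0, and 1 or 2 passed without any 1 library. This comparison uses the same CFAE+8 libraries as the preceding one, so the values of each gene in both are linked through them.

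CFAE+8+MSC was also set directly against CFAE+6. With edgeR 0 of the 7 genes passed, 0 had an unadjusted p under 0.05 (Med12l came nearest) and DESeq2 called 0, while edgeR called 10.5% of all tested genes, 6.21% higher and 4.27% lower. Their log2 fold changes lay between -0.03 and 0.36. The interval for Cdk19 was -0.21 to 0.31, that for Med13l -0.06 to 0.22 and that for Med12l -0.05 to 0.78, so for Med12l a difference of up to 1.72-fold lies within the interval. Without CFAE+6 replicate 1, Med13 passed (log2 fold change 0.24, adjusted p = 0.0403).

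The cocktails were compared with fibroblast medium to ask how the module differed after 4 days. In CFAE+8, 1 gene rose (Med12l) and 2 fell (Ccnc and Med13l), against 30.8% of all tested genes higher and 31.3% lower. In CFAE+6, 1 rose (Med12l) and 2 fell (Cdk19 and Med13l), against 31.6% higher and 31.5% lower. In CFAE+8+MSC, 1 rose (Med12l) and 3 fell (Cdk19, Ccnc and Med13l), against 31.9% higher and 32.2% lower. Called in either direction were 62.0%, 63.1% and 64.1% of all tested genes, so the members passed in no larger share than other genes. The median absolute log2 change of the members was 0.17 in CFAE+8, 0.27 in CFAE+6 and 0.29 in CFAE+8+MSC, and over all tested genes it was 0.49, 0.50 and 0.51. The 3 comparisons share the MEF libraries.

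**Figure D2:**
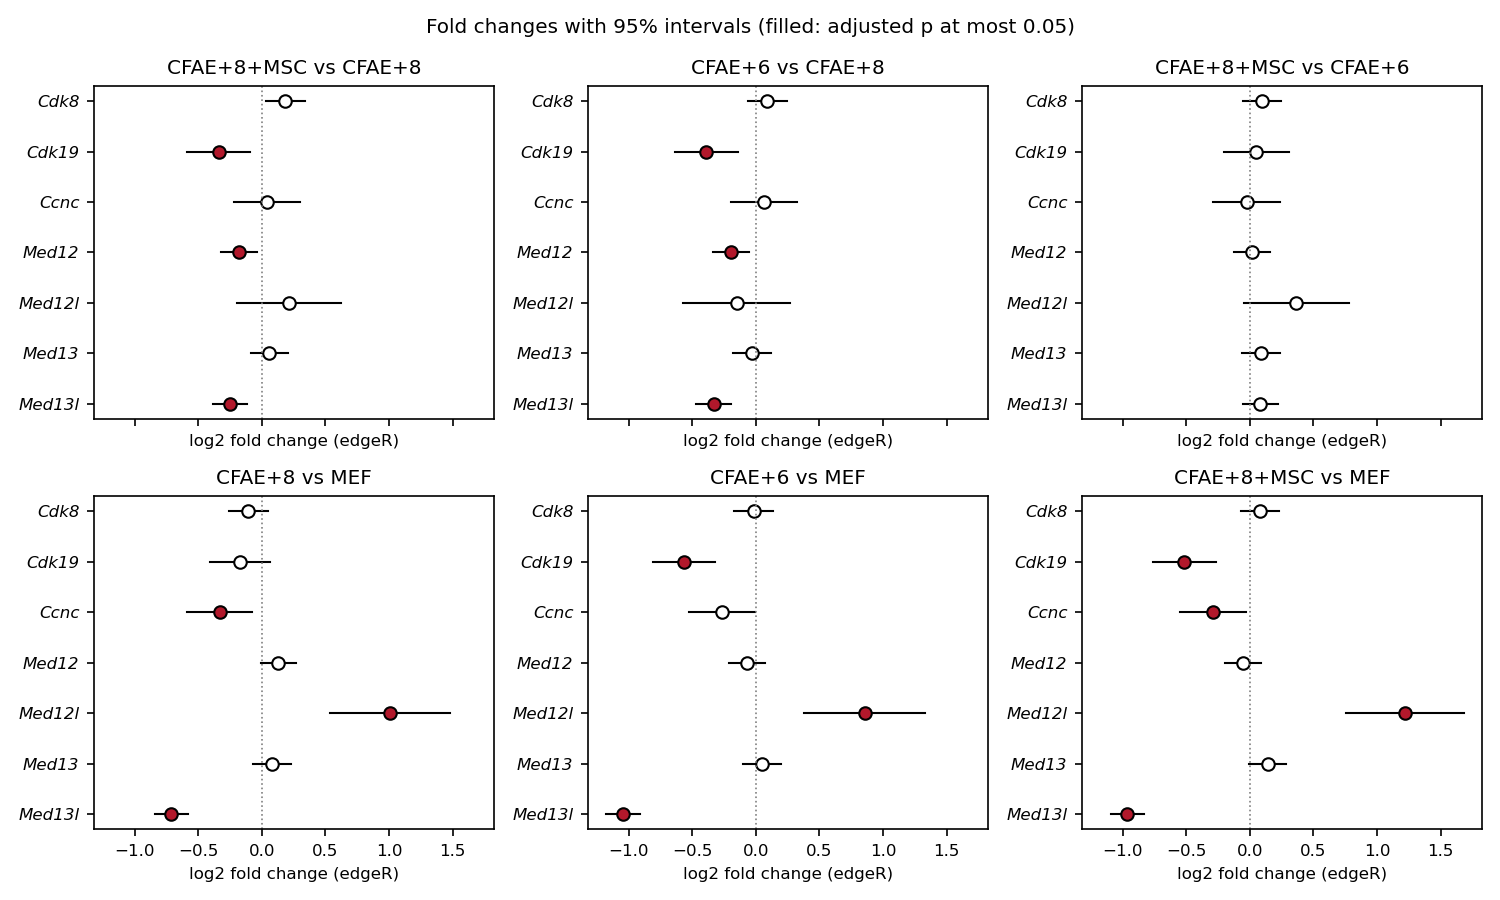
Log2 fold change (x axis, edgeR) of the 7 genes in the 6 comparisons between media, with 95% intervals. The group named first is on top of the fold change, filled points passed an adjusted p of 0.05, and Med13l lies left of 0 and Med12l right of 0 in the 3 lower panels, where MEF is the other group.

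Levels of different genes were compared per kilobase of all exons of a gene (CPM per kb), an order that depends on the length used. In CFAE+8+MSC the order was Med12 (11.8 ± 1.06), Med13 (10.4 ± 0.577), Cdk8 (7.30 ± 0.230), Med13l (5.0 ± 0.425), Ccnc (3.86 ± 0.285), Cdk19 (3.19 ± 0.483) and Med12l (0.715 ± 0.0905). In MEF it was Med12 (12.2 ± 0.633), Med13l (9.76 ± 0.122), Med13 (9.44 ± 0.351), Cdk8 (6.91 ± 0.395), Ccnc (4.73 ± 0.00709), Cdk19 (4.55 ± 0.0732) and Med12l (0.307 ± 0.0334; SD, n = 2 throughout). On this length Med13l stood slightly above Med13 within each MEF library (9.68 against 9.19 in replicate 1, 9.85 against 9.68 in replicate 2). In CFAE+8+MSC Med13l stood below Cdk8. Med13l also stood below Cdk8 in CFAE+6 (4.73 ± 0.174 against 6.83 ± 0.255 for Cdk8), while in CFAE+8 it was at 5.95 ± 0.0193 against 6.42 ± 0.485 for Cdk8. With the longest coding transcript of each gene as its length, Cdk8 had the highest mean in every medium, 24.1 ± 0.760 CPM per kb in CFAE+8+MSC and 22.9 ± 1.3 CPM per kb in MEF. On that length Med12 was at 13.0 ± 1.18 CPM per kb in CFAE+8+MSC and 13.5 ± 0.703 CPM per kb in MEF, and Med13 at 10.7 ± 0.593 and 9.70 ± 0.361 CPM per kb in the same order. Med13l was at 8.31 ± 0.705 CPM per kb in CFAE+8+MSC and 16.2 ± 0.203 CPM per kb in MEF, below Cdk8 in both and above Med13 in MEF. Med12l was the lowest on either length.

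The balance of each paralogue pair was followed as a ratio within each library, in which library scaling cancels. Cdk8 over Cdk19 was 2.51 and 2.11 in CFAE+8+MSC, 2.29 and 2.15 in CFAE+6, 1.48 and 1.71 in CFAE+8, and 1.56 and 1.48 in MEF. The libraries of CFAE+8+MSC and CFAE+6 all had higher ratios than those of CFAE+8 and MEF. Med13 over Med13l was 2.29 and 1.88 in CFAE+8+MSC, 2.21 and 1.92 in CFAE+6, 1.65 and 1.70 in CFAE+8, and 0.949 and 0.983 in MEF. These ratios were near 1 in MEF and above it in all 6 cocktail libraries. Both CFAE+8 libraries lay below every library of CFAE+8+MSC and CFAE+6. Med12 over Med12l was 19.2 and 14.1 in CFAE+8+MSC, 18.6 and 23.9 in CFAE+6, 23.9 and 19.8 in CFAE+8, and 41.5 and 38.2 in MEF. Only MEF stood apart for this pair. An exact permutation test of the log2 ratios among the 4 media (F statistic over all 105 divisions of 8 libraries into 4 pairs) gave p = 0.0762 for Cdk8 over Cdk19, p = 0.0667 for Med12 over Med12l and p = 0.0476 for Med13 over Med13l. The smallest p this exact test allows is 0.00952, and each value was 0.0762 after adjustment over the 3 ratios, so none passed. Without CFAE+8 replicate 1 or 2 the exact p for Med13 over Med13l was 0.0857 or 0.0762. For Cdk8 over Cdk19 the exact p was 0.0286 without CFAE+8+MSC replicate 2 and 0.0476 without CFAE+8 replicate 1, and for Med12 over Med12l it was 0.0381 without CFAE+8+MSC replicate 1.

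The size of a ratio depends on the length used. The exons of Cdk8 span 9832 bases in all, but its longest coding transcript in GENCODE M21 has 2973 bases, against 5846 and 5807 bases for Cdk19. With transcript lengths the mean log2 ratio of Cdk8 over Cdk19 was 2.92 in CFAE+8+MSC and 2.32 in MEF, instead of 1.2 and 0.60, and that of Med13 over Med13l was 0.36 in CFAE+8+MSC and -0.74 in MEF, instead of 1.05 and -0.05. Differences between media were unaffected, since a length shifts every library alike.

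**Figure D3:**
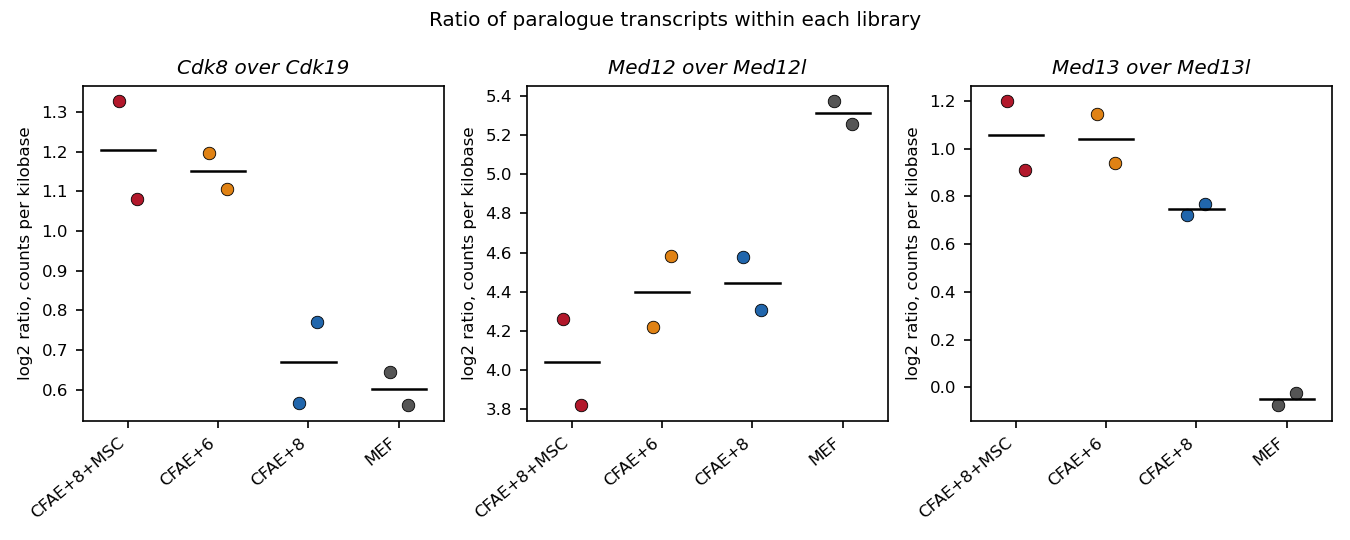
Log2 ratio of paralogue transcripts per kilobase of exon (y axis, not starting at 0) in each of the 8 libraries, with the mean of each group as a line. Cdk8 over Cdk19 separates CFAE+8+MSC and CFAE+6 from CFAE+8 and MEF, and in the other panels MEF stands apart from the cocktails. For Med13 over Med13l, CFAE+8 also lies below the other cocktails.

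The remaining subunits of Mediator were examined beside the module. Of 26 core Mediator genes 25 were tested, and 12 of them differed among the media, against 71.8% of all tested genes. In CFAE+8+MSC against CFAE+8, 1 rose and 2 fell, and 29.3% of all tested genes passed in either direction. Med14, the central scaffold of the complex, rose to 101 ± 2.30 CPM in CFAE+8+MSC, against 84.2 ± 4.11 CPM in CFAE+8 (SD, n = 2; edgeR adjusted p = 0.00313). Med16, a subunit of the tail that contacts activators, fell to 23.4 ± 2.22 CPM in CFAE+8+MSC, against 34.6 ± 2.74 CPM in CFAE+8 (adjusted p = 0.000102), and Med22 fell by 0.19 ± 0.06 on the log2 scale (adjusted p = 0.0301). In CFAE+6 against CFAE+8, Med16 fell by 0.34 ± 0.10 (adjusted p = 0.0128) and the other 24 did not pass, against 26.6% of all tested genes called. In CFAE+8+MSC against CFAE+6, Med22 fell by 0.23 ± 0.06 (adjusted p = 0.0226) and 24 did not pass, against 10.5% of all tested genes called. Against MEF, 8 rose and 5 fell in CFAE+8+MSC, 7 rose and 4 fell in CFAE+6, and 8 rose and 2 fell in CFAE+8, lower shares than the 64.1%, 63.1% and 62.0% of all tested genes called in these comparisons. In those comparisons Med14 and Med4 rose in all 3 cocktails, with Med14 at 101 ± 2.30 CPM in CFAE+8+MSC, 88.0 ± 5.89 CPM in CFAE+6, 84.2 ± 4.11 CPM in CFAE+8 and 59.1 ± 0.285 CPM in MEF. Med16 was at 23.4 ± 2.22, 27.3 ± 2.20, 34.6 ± 2.74 and 47.4 ± 2.26 CPM in the same order, so like Med13l it was highest in MEF and next highest in CFAE+8. The median log2 fold change of the core genes stayed between -0.05 and 0.09 over the 6 comparisons.

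A list of proteins known as substrates of the module's kinase, with Fbxw7, was followed as well. Fbxw7 encodes the ubiquitin ligase subunit that targets MED13 and MED13L for degradation in human cells. Its level was 31.8 ± 0.0966 CPM in CFAE+8+MSC, 32.7 ± 1.59 CPM in CFAE+6, 25.3 ± 0.185 CPM in CFAE+8 and 26.3 ± 1.43 CPM in MEF. Fbxw7 rose against CFAE+8 in CFAE+8+MSC (log2 fold change 0.33 ± 0.10, adjusted p = 0.0132) and in CFAE+6 (0.37 ± 0.10, adjusted p = 0.00572). Stat3, a cytokine-activated transcription factor gene, fell to 169 ± 10.1 CPM in CFAE+8+MSC and 181 ± 0.214 CPM in CFAE+6, against 266 ± 2.41 CPM in CFAE+8 (adjusted p = 3.94e-11 and 1.86e-09), and MEF had 412 ± 16.7 CPM. All 8 genes passed in the test among the media, against 71.8% of all tested genes. Against CFAE+8, 1 rose and 2 fell in CFAE+8+MSC and 1 rose and 5 fell in CFAE+6, where 29.3% and 26.6% of all tested genes passed in either direction, while between CFAE+8+MSC and CFAE+6 the smallest adjusted p was 0.0747, for E2f1. Against MEF, 5 rose and 3 fell in CFAE+8+MSC, 5 rose and 3 fell in CFAE+6, and 3 rose and 3 fell in CFAE+8, where 64.1%, 63.1% and 62.0% of all tested genes passed. E2f1, which drives entry into S phase, was at 104 ± 1.64 CPM in CFAE+8+MSC, 91.8 ± 5.95 CPM in CFAE+6, 111 ± 3.03 CPM in CFAE+8 and 44.6 ± 0.356 CPM in MEF.

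**Figure D4:**
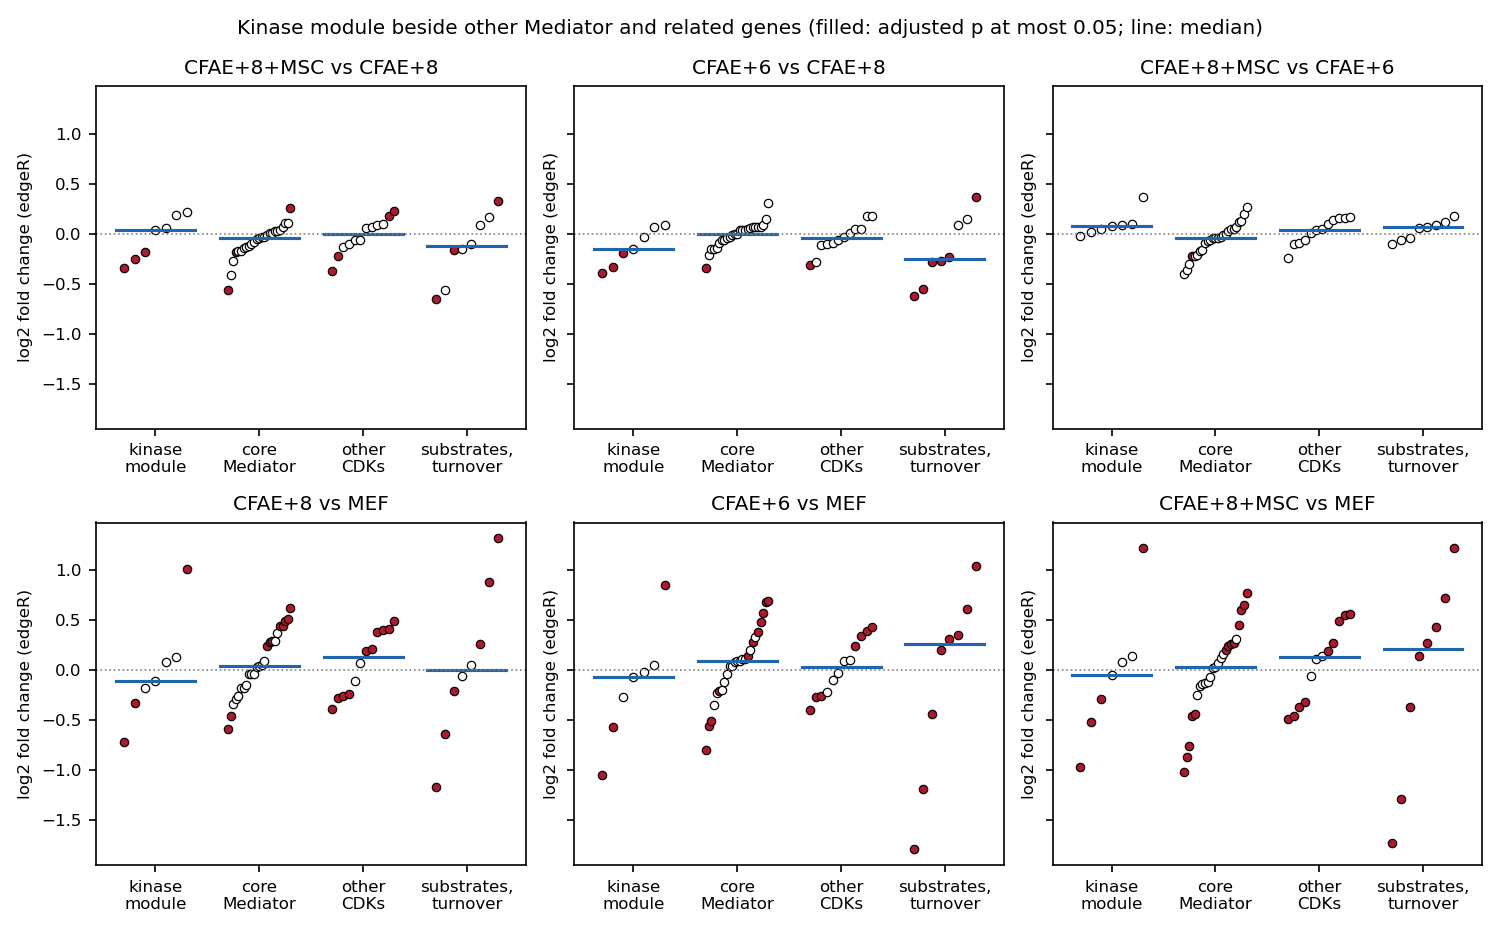
Log2 fold change (y axis, edgeR) of each tested gene in 4 lists for the 6 comparisons between media. Filled points passed an adjusted p of 0.05 and blue lines are medians. In the upper panels, which compare cocktails, the kinase module points lie between -0.39 and 0.36, and in the lower panels, against MEF, between -1.05 and 1.22.

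The genes most like each member were taken as the 2 protein-coding genes with the highest Pearson correlation of log2 CPM over the 8 libraries. For Med13l these were Kirrel and Cdon, both cell-surface proteins of the immunoglobulin superfamily (r = 0.997 for each). For Cdk19 they were Nt5c (0.991) and Cep162 (0.982), for Med12l Mtr (0.992) and Rpf2 (0.983), and for Med12 Rab35 (0.98) and Pcdhb18 (0.972). For the members with little variation they were Aspg (0.959) and Ispd (0.954) for Cdk8, and Slc39a9 (0.943) and Ppp2r3c (0.914) for Med13. The 8 points share 4 media and their depths, and the best of many genes is chosen, so these values are descriptions only. Cdon was at 50.3 ± 1.79 CPM in CFAE+8+MSC, 47.1 ± 3.19 CPM in CFAE+6, 61.2 ± 0.624 CPM in CFAE+8 and 104 ± 0.524 CPM in MEF.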

How the data were processed

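RNA of embryonic fibroblasts was prepared for sequencing with a NEBNext Ultra kit, per the labels' protocols. The authors deposited raw counts per gene for the 8 libraries, with coordinates and an exon length in bases per gene. The submitters' processing notes name featureCounts of Subread, DESeq2 and mm10. No version, aligner or strand setting is given in the sources used here. Start, end and exon length of the 7 genes were identical to those in GENCODE M21, from which exon overlaps with other genes were taken.

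Counts were filtered with filterByExpr in edgeR 4.0.16 (R 4.3.3) and scaled with TMM factors of 0.918 to 1.04. The quasi-likelihood F test used 1 mean per group over all 8 libraries, with 4 residual degrees of freedom and a common biological coefficient of variation of 0.0445. P-values were adjusted over 15470 genes. Each SE was obtained by dividing the log2 fold change by the root of its F statistic. The 95% intervals use the t distribution with the total degrees of freedom of the fit. That total, also used in the F test, adds degrees borrowed from the spread of all tested genes to the 4 residual ones. The fit was tested on simulated data. Replicates of a group differed by more than counting noise (chi-square per degree of freedom 1.87 to 2.67). The alternatives were other scalings, no filter, DESeq2 1.42.0, a fit of the 2 groups alone, a replicate block, a 1.2-fold test and leaving out each library. The genes and the lists (core Mediator, other transcriptional kinases and cyclins, substrates, cell type markers) were chosen with earlier results of these data known. Named list genes are up to 4 per list and comparison with the smallest adjusted p, of which some are given, with their levels in the other media. Transcript lengths, for the ratios and the levels, were added after the data were seen. Promoter sequences are from RefSeq (GRCm38.p6), with an entry for 6 of the 7 genes. Some genes are named outside the rule where a measured level bears on a result: Igsf10, Tstd3, Brip1os and the other overlapping genes. The genes most like Ccnc and some single genes of the lists are not reported here.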

Additional observations from a re-analysis of the deposited data

How the results depend on the processing

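Of the 553 values of single members under an alternative setting, 495 kept their side of the threshold, 44 lost it, 14 gained it and 0 changed sign while called. The 495 include values called neither in the main fit nor in the alternative, so they do not measure how firm the calls were. Every call of Cdk19, Med12 and Med13l between cocktails was lost in 1 or more of its 11 alternatives. The calls of Med12l and Med13l against MEF held in all 11. For CFAE+8+MSC against CFAE+8 the 4538 genes called became 2025 with a 1.2-fold test and 2827 with DESeq2, and the 3 members became 0 and 1. For CFAE+6 against CFAE+8, 4116 genes became 1654 and 2530, and 3 members became 0 and 1. For CFAE+8+MSC against CFAE+6, 1621 genes became 279 and 895. The 1.2-fold test asks for more than a difference by construction. The cause of the DESeq2 difference was not tested.

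Leaving out 1 library at a time gave 3181 to 3502 genes and 1 to 2 members for CFAE+8+MSC against CFAE+8, 2720 to 3373 genes and 1 to 2 members for CFAE+6 against CFAE+8, and 947 to 1451 genes and 0 to 1 members for CFAE+8+MSC against CFAE+6. The exact permutation p of the paralogue ratios ran from 0.0286 to 0.0952 for Cdk8 over Cdk19, from 0.0381 to 0.124 for Med12 over Med12l and from 0.019 to 0.0857 for Med13 over Med13l. Members gained by leaving out a library are counted too, as Cdk8 was for CFAE+8+MSC against CFAE+8. Where 1 library was left in a group, it was taken to vary like the other groups.

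Libraries with the same replicate number did not deviate together (correlations of deviations -0.0211 to 0.0459 over 14223 genes), so pairing by number was not found. With a replicate block added, the fit called 4531, 4124 and 1679 genes in the 3 comparisons between cocktails, and 9584, 9765 and 9906 for CFAE+8, CFAE+6 and CFAE+8+MSC against MEF, with the same numbers of members as without it. In the test among all media it called 5 members, Ccnc being added (adjusted p = 0.0485). Upper-quartile scaling shifted the median log2 fold change of all genes by at most 0.0427.

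Depth limits Med12l most, with 38 to 110 counts per library. With 2 libraries per group, the calls of Cdk19 and Med12 between cocktails, and of Ccnc against MEF, turned on single libraries. So did the Med13l call in CFAE+8+MSC against CFAE+8, where the log2 fold change was -0.16 without CFAE+8+MSC replicate 1.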

Other observations

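Of 12 other kinases and cyclins of transcription, 11 differed among the 4 media, against 71.8% of all tested genes. Against MEF, 5 rose and 4 fell in CFAE+8+MSC, 4 rose and 3 fell in CFAE+6, and 6 rose and 4 fell in CFAE+8, where 64.1%, 63.1% and 62.0% of all tested genes passed. Ccnt1 and Ccnt2, the cyclins of the elongation factor P-TEFb, rose in all 3: Ccnt2 was at 100.3 ± 0.191 CPM in CFAE+8+MSC, 90.0 ± 4.70 CPM in CFAE+6, 96.4 ± 2.03 CPM in CFAE+8 and 68.6 ± 1.12 CPM in MEF. Mnat1, a subunit of the kinase complex of TFIIH, fell to 17.4 ± 0.534 CPM in CFAE+8+MSC, against 22.6 ± 1.67 CPM in CFAE+8 (edgeR adjusted p = 0.0245). In that comparison 2 genes rose and 2 fell, against 29.3% of all tested genes called. In CFAE+6 against CFAE+8, 1 gene passed, Ccnl1, at 67.7 ± 3.93 CPM in CFAE+6 and 84.2 ± 0.384 CPM in CFAE+8 (adjusted p = 0.00115), against 26.6% of all tested genes called. Between CFAE+8+MSC and CFAE+6 the smallest edgeR adjusted p was 0.122, for Ccnt2.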
